A study of Mus musculus and Homo sapiens with 17 samples.

Results

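Collagens are the triple-helical proteins of the extracellular matrix. Their genes were read here in chemically induced skin lesions of mice and in the human epidermoid carcinoma line A431. Members were all named features whose symbol has the form Col, a number, a and a number (COL and A in the human table) and whose counts summed to at least 20 over the table. That gave 44 of 54532 named mouse features and 31 of 58735 named features in the A431 table. A further 13 collagen genes of the A431 data stayed under the minimum, with COL9A1 at 16 counts and COL21A1 at 17 counts just outside it and COL6A6 at 43 counts and COL4A3 at 52 counts just inside. In the mouse table no collagen gene was left out, and the lowest members were Col9a2 with 68 counts and Col9a1 with 77 counts.

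The mouse libraries came from C57BL/6-129 animals, all treated with the mutagen DMBA and the tumour promoter TPA. They were squamous cell carcinomas (SCC) labelled DUSP1 KO (2 libraries), papillomas labelled DUSP1 KO (3 libraries), SCC of WT mice (3 libraries) and skin of WT mice (3 libraries). Dusp1 encodes a phosphatase that switches off MAP kinases. RNA came from whole frozen sections and so from every cell in them, dermis included, while the stated cell type is keratinocytes. The A431 groups were cells with a guide against DUSP1 (KO, 3 libraries) and cells with a guide against Tomato (control, 3 libraries). Tumours grew for 3 weeks from 100000 cells per intradermal injection, and the human cells were recovered by removing those of the host. The library names of the A431 KO samples carry the code CL2, which the labels do not explain. The names of A431 KO replicates 2 and 3 both end in CL2_3. Whether these replicates came from the same sample is not stated. Nothing in the labels says that replicates were separate animals or cultures, so p-values measure only the spread between these libraries, which may be technical.

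Fibrillar collagens (types I, II, III, V, XI, XXIV and XXVII) form the banded fibres of dermis and cartilage. Type IV chains assemble into the sheet of the basement membrane, where the Col4a1 and Col4a2 chains are found in nearly all tissues and the Col4a5 and Col4a6 chains form a network known from the epidermal basement membrane. Type VII collagen makes the anchoring fibrils that tie this sheet to the dermis, and type XVII is a transmembrane component of the hemidesmosomes of basal keratinocytes. Fibril-associated collagens decorate fibres, type VI makes beaded filaments, types VIII and X make short-chain networks, and types XV and XVIII (multiplexins) sit at basement membranes.

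Type IV genes lie in head-to-head pairs, and both members of the Col4a3 and Col4a4 pair and of the Col4a5 and Col4a6 pair fell in WT SCC against WT skin, so the sequence between or before their starts is shown. In other comparisons Col4a5 and Col4a6 differed from each other, with log2 fold changes of -0.52 and 0.25 in KO papilloma against WT SCC and of -0.46 and -1.7 in KO SCC against KO papilloma, none of which passed. In GENCODE M21 (GRCm38) the starts of Col4a4 and Col4a3 on chromosome 1 have 71 bases between them, and those of Col4a6 and Col4a5 on the X chromosome have 1308 bases between them. The RefSeq promoter table (GRCm38.p6) held 35 of the 45 collagen symbols looked up. The 71-base interval is chr1:82586850-82586920 on the plus strand, the Col4a6 window is chrX:141474077-141474326 on the minus strand and the Col4a5 window is chrX:141475169-141475384 on the plus strand. None of these windows touches an annotated exon. Capitals mark a match, on either strand, to the GC box (letters GGGCGG), the motif named for its letters CCAAT, or the TATA box (letters TATAAA).
Col4a3-Col4a4 interval: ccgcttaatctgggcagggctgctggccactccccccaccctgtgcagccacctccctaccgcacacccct
Col4a6 upstream: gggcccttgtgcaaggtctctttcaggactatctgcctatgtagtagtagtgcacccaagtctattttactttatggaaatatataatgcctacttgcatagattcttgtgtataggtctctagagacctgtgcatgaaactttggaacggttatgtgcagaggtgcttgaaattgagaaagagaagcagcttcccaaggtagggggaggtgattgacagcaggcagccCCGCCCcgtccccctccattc
Col4a5 upstream: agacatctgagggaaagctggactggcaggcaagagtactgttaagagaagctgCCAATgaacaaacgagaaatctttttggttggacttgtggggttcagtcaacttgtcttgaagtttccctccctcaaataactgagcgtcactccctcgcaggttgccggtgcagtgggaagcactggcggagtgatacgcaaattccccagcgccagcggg
The Col4a6 window holds 1 GC box, a motif present in 32.7% of 32851 promoter windows of the same length. The Col4a5 window holds 1 CCAAT box, present in 30.8% of windows of its length. The interval between Col4a3 and Col4a4 holds none of these motifs.

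Mouse libraries held 34.4 to 47.9 M counts (M for 1e+06), and those of A431 cells 41.2 to 53.5 M. Levels are given as CPM, counts per 1e+06 of the normalised library size, and a count of 3 corresponded to at most 0.0871 CPM in a mouse library. The Dusp1 transcript was not lower in the mouse libraries labelled KO. It stood at 139 and 174 CPM in KO SCC and at 109 to 129 CPM in KO papillomas, against 66.6 to 83.7 CPM in WT SCC. DUSP1 was at 71 to 77.1 CPM in A431 KO cells, against 467 to 485 CPM in A431 control cells. WT skin replicate 3 stood apart from the other skin libraries in its type I and III genes and its Y-linked counts, as detailed with each result it touches. Counts of 4 Y-linked genes (Ddx3y, Eif2s3y, Kdm5d and Uty) numbered 4779 in the second KO SCC library and 0 in the first, 0 in every KO papilloma and WT SCC library, and 6624, 9552 and 7 in WT skin replicates 1, 2 and 3. By these counts sex differed within KO SCC and within WT skin, and also between the WT SCC libraries and WT skin replicates 1 and 2. Xist, an RNA of female cells, was at 203 CPM in KO SCC replicate 1 and 0.0743, 0.707 and 381 CPM in WT skin replicates 1, 2 and 3. KO SCC replicate 2, with its Y-linked counts, still had Xist at 15.3 CPM. The part of sex in the results was not tested. Keratinocyte markers (8 genes) summed to 46600 and 50300 CPM in KO SCC, 36900 to 60200 CPM in KO papillomas, 36500 to 38700 CPM in WT SCC and 7330 to 14900 CPM in WT skin. In bulk RNA, fewer cells of a type and less RNA per cell cannot be told apart.

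**Figure D1:**
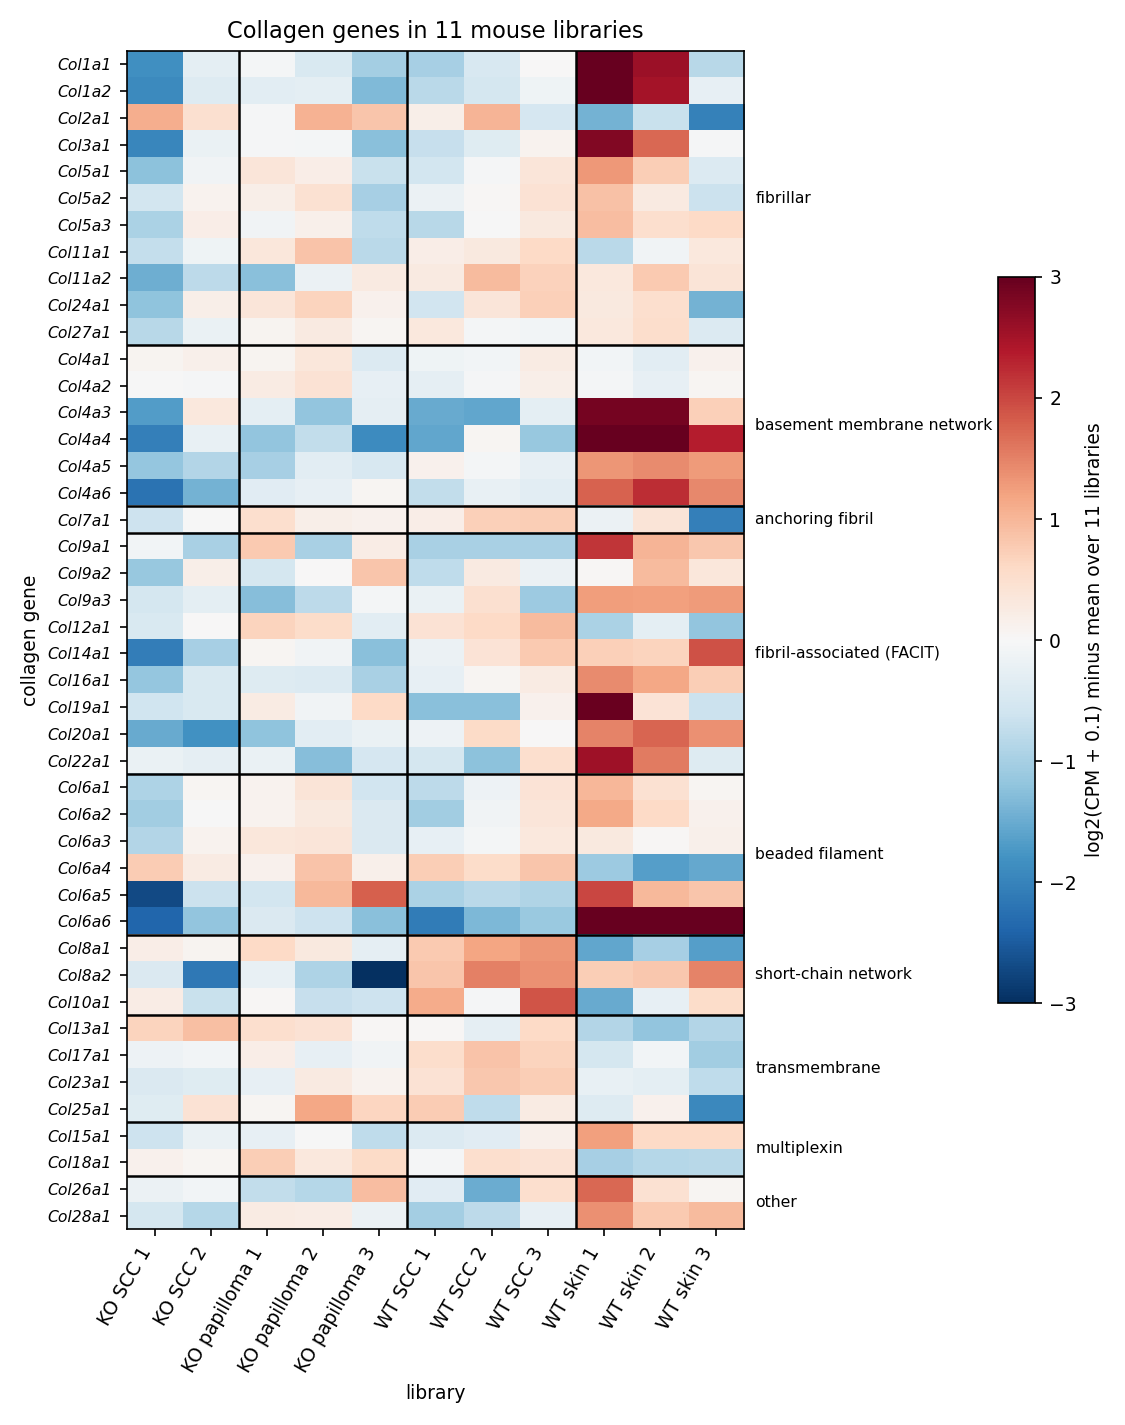
Each row is 1 of the 44 mouse collagen genes, grouped by class, and each column 1 of the 11 libraries. Colour is log2(CPM + 0.1) minus the gene's mean over the libraries, capped at 3 either way, with blue below and red above the mean. The skin libraries are red for Col4a3 to Col4a6 and Col6a6, and skin replicates 1 and 2 but not 3 for Col1a1, Col1a2 and Col3a1.

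Collagen genes took 0.227% and 0.465% of all counts in KO SCC, 0.329% to 0.551% in KO papillomas and 0.437% to 0.737% in WT SCC. In WT skin the share was 4.17%, 2.4% and 0.589%. Skin replicates 1 and 2 were far above every lesion, while skin replicate 3 lay within the range of the WT SCC libraries. Most of this spread came from the genes of the major dermal fibre collagens, Col1a1, Col1a2 and Col3a1. Their summed level was 941 and 2930 CPM in KO SCC, 3240, 3060 and 1520 CPM in KO papillomas, 2050, 2610 and 3560 CPM in WT SCC, and 32600, 16700 and 3000 CPM in WT skin. The other 41 genes together spanned only 1850 to 3460 CPM over all 11 libraries.

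Levels of different genes were compared per kilobase of exon, and the order of the leading genes depended on the length used. Per kilobase of the union of all annotated exons, Col17a1 led in WT SCC with 137 CPM per kb, ahead of Col3a1 with 129 CPM per kb. Per kilobase of the longest coding transcript, a length added after the first values had been seen, Col3a1 led in WT SCC with 227 CPM per kb, ahead of Col1a2 with 173 and Col17a1 with 148 CPM per kb. Col1a2 has 12.4 kb of exon union and 5.35 kb in its longest coding transcript. Under both lengths Col3a1 led in KO SCC (88.4 and 156 CPM per kb) and in KO papillomas (122 and 216 CPM per kb), and Col17a1 was below all 3 type I and III genes in WT skin (60.2 and 64.8 CPM per kb). No order between Col17a1 and the type I and III genes in WT SCC is therefore drawn.

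The ratio of Col3a1 to Col1a2, per kb of exon union, was 1.45 and 1.74 in KO SCC, 1.83, 1.77 and 1.58 in KO papillomas, 1.66, 1.7 and 1.79 in WT SCC, and 0.958, 0.89 and 1.77 in WT skin. Every lesion was above skin replicates 1 and 2, while skin replicate 3 lay within the lesion range. The ratio of Col4a1 to Col4a2 varied little by comparison, between 1.18 and 1.53 over all 11 libraries.

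WT SCC was compared with WT skin to see which collagens differ between carcinoma and treated skin. By transcript level, carcinomas had less of 4 of the 6 type IV genes. They had more of the keratinocyte gene Col17a1, of the multiplexin gene Col18a1 and of Col8a1. The type I and III fibre genes were also called lower, but skin replicate 3 lay inside the WT SCC range for each of them. Of the 44 members, 8 rose and 15 fell at an adjusted p under 0.05 (edgeR quasi-likelihood test), which is 52.3% against 40.5% of all 22371 features tested (16.9% higher and 23.6% lower). All 23 differed at least 2-fold, as did 25.2% of all features. The median log2 fold change was -0.76 over the members and -0.16 over all features. The tissue makeup also differed. Fibroblast markers (12 genes, 11 of them lower) summed to 468 to 715 CPM in WT SCC and 2870 to 5160 CPM in WT skin. Skeletal muscle markers summed to 10.7 to 144 CPM in WT SCC and 6230 to 8470 CPM in WT skin, and Schwann cell markers to 49.6 to 64.8 CPM in WT SCC and 368 to 486 CPM in WT skin. Endothelial markers summed to 206 to 244 CPM in WT SCC and 359 to 369 CPM in WT skin. Leukocyte markers (6 of 8 lower) summed to 563 to 794 CPM in WT SCC and 1490 to 2500 CPM in WT skin, and myofibroblast and pericyte markers (4 of 8 lower, 1 higher) to 401 to 505 CPM in WT SCC and 825 to 1010 CPM in WT skin. Of 8 adipocyte markers 7 were lower and 1 higher, with a median log2 fold change of -6.99. Their sums overlapped, with 1800 to 2700 CPM in WT SCC and 2630 to 4050 CPM in WT skin. Of 8 cartilage and bone markers tested, 4 were lower and 1 higher. The cartilage and bone sums also overlapped, with 61.8 to 75.2 CPM in WT SCC and 41.7 to 87.1 CPM in WT skin. The part of these cell types in the collagen differences was not tested.

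Among fibrillar genes, Col1a2, the second chain of type I collagen, had 729, 883 and 1170 CPM in WT SCC, against 14000, 7190 and 1080 CPM in WT skin. Skin replicate 3 fell inside the WT SCC range, so the groups overlapped. Col1a2 fell by 3.01 ± 0.74 on the log2 scale (SE, adjusted p = 0.00801, edgeR). Col1a1 had 370, 535 and 753 CPM in WT SCC, against 7890, 4440 and 415 CPM in WT skin, and Col3a1 had 954, 1190 and 1650 CPM in WT SCC, against 10600, 5060 and 1510 CPM in WT skin. Both overlapped in the same way, through skin replicate 3. Their log2 fold changes were -2.94 ± 0.81 for Col1a1 (adjusted p = 0.0138) and -2.18 ± 0.65 for Col3a1 (adjusted p = 0.0204). Without skin replicate 3 the log2 fold changes were -3.51 for Col1a2, -3.47 for Col1a1 and -2.63 for Col3a1. Without skin replicate 1 Col1a2 was at -2.15 and Col1a1 at -2.13, both still called, and Col3a1 was at -1.38 and lost its call (adjusted p = 0.0922), as it did without WT SCC replicate 1 (adjusted p = 0.0764) or 2 (adjusted p = 0.067), and Col1a1 lost it without WT SCC replicate 1 (adjusted p = 0.0574). Fibroblast markers in skin replicate 3 summed to 2900 CPM, close to the 2870 CPM of skin replicate 2, although its type I and III genes were far lower. It was also the skin library with 7 Y-linked counts. Col2a1, the cartilage fibril chain, rose by 1.9 ± 0.58 from low levels (0.652 to 2.06 CPM in WT SCC, 0.159 to 0.564 CPM in WT skin, adjusted p = 0.0226), a call lost without WT SCC replicate 2 (adjusted p = 0.106) or without skin replicate 1 or 3. The remaining 7 fibrillar genes did not pass the test, with Col5a2 at 255 ± 55.9 CPM in WT SCC and 289 ± 142 CPM in WT skin (SD, n = 3 each).

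**Figure D2:**
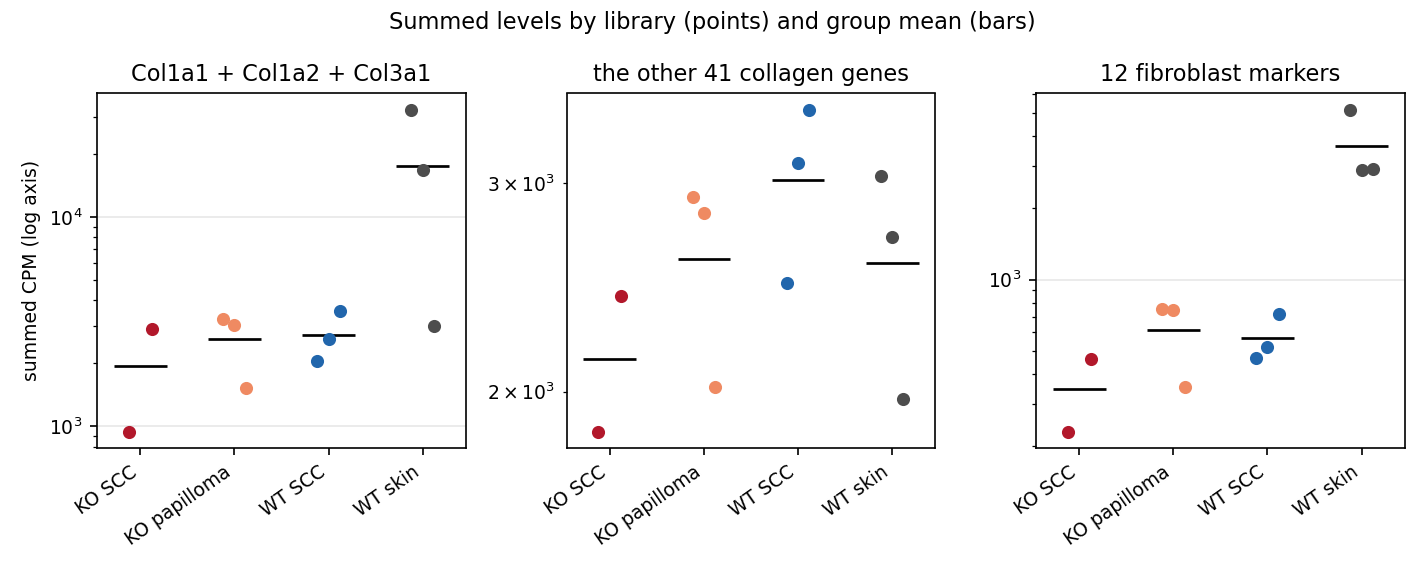
Points are libraries and bars group means, on log axes of summed CPM, for Col1a1 + Col1a2 + Col3a1 (left), the other 41 collagen genes (middle) and 12 fibroblast markers (right). Skin replicate 3 sits at 3000 CPM in the left panel, beside the lesions, and at 2900 CPM in the right panel, beside skin replicate 2.

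The type IV genes split. Col4a1 had 197, 204 and 255 CPM in WT SCC, against 202, 173 and 235 CPM in WT skin, and the groups overlapped (log2 fold change 0.11 ± 0.2, adjusted p = 0.686). Col4a2 was likewise at 139 ± 21.5 CPM in WT SCC and 135 ± 13.5 CPM in WT skin (SD, n = 3 each). Col4a5 had 7.58, 6.61 and 5.85 CPM in WT SCC, against 17.5, 18.8 and 16.9 CPM in WT skin. Col4a6 had 1.71, 2.51 and 2.33 CPM in WT SCC, against 10.2, 13.9 and 8.06 CPM in WT skin. For both, every carcinoma was below every skin library, replicate 3 included. Col4a5 fell by 1.41 ± 0.21 on the log2 scale (adjusted p = 0.00037) and Col4a6 fell by 2.29 ± 0.3 (adjusted p = 0.000203). Col4a4 had 0.29, 1.09 and 0.419 CPM in WT SCC, against 9.83, 10.7 and 5.73 CPM in WT skin, with no overlap, and fell by 3.84 ± 0.64 (adjusted p = 0.00086). Its head-to-head neighbour Col4a3 was at 0.165 to 0.536 CPM in WT SCC and 1.18 to 5.64 CPM in WT skin and fell by 3.81 ± 0.81. An exon of Col4a3 overlaps a transcript on the opposite strand by 289 bases, and no source used here gives the strand setting of the counting.

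**Figure D3:**
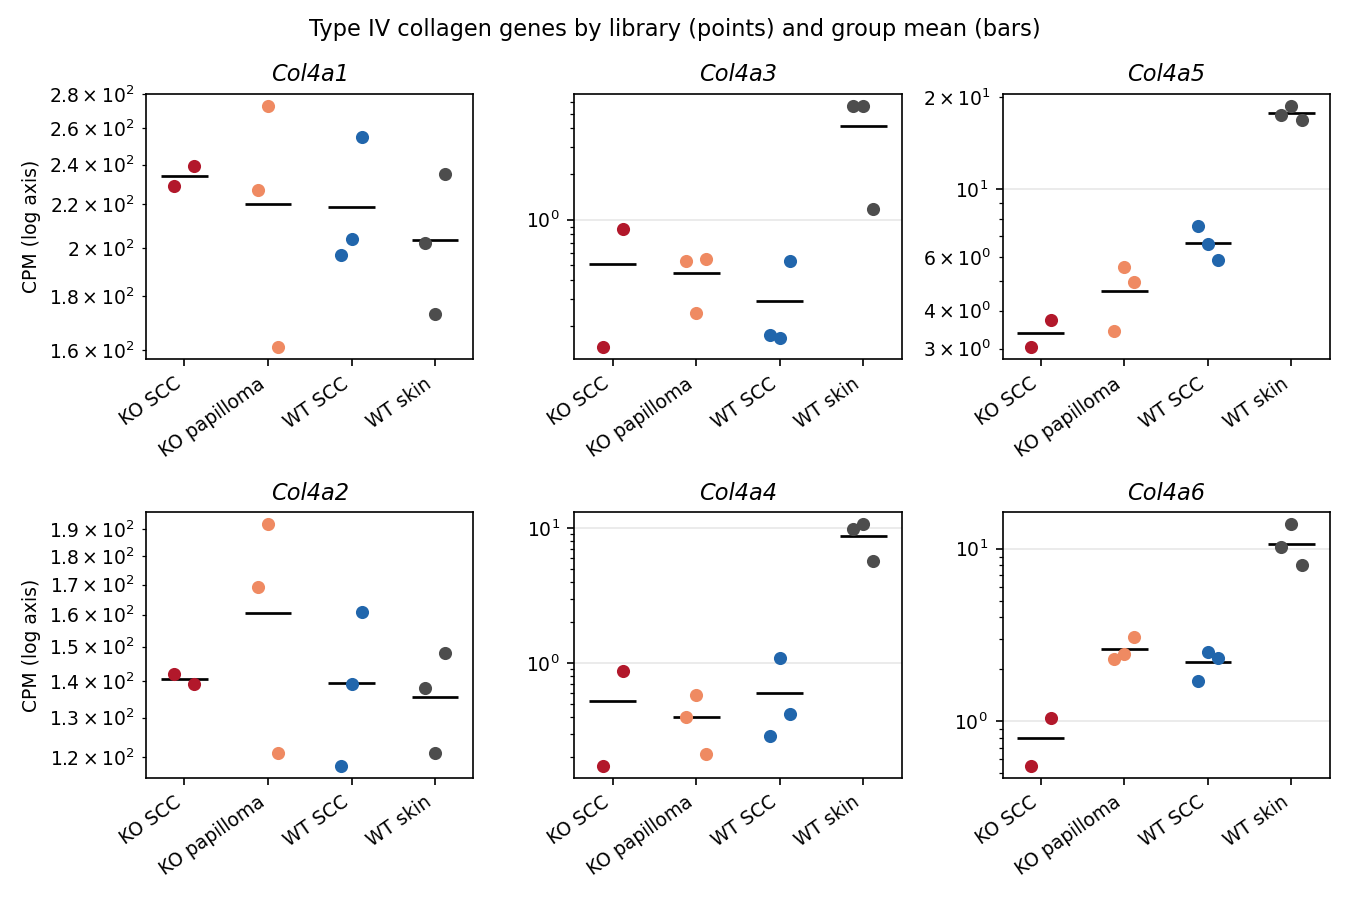
CPM of the 6 type IV genes on log axes, with points for libraries and bars for group means; each column of panels is 1 head-to-head pair. Col4a1 and Col4a2 overlap in all 4 groups, while skin lies above every lesion for Col4a3 to Col4a6.

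Among the beaded filament genes, Col6a6 showed the deepest difference of the members with counts in both groups. It had 0.0581, 0.165 and 0.21 CPM in WT SCC, against 7.75, 6.89 and 7.51 CPM in WT skin, and fell by 5.62 ± 0.56 (adjusted p = 4.02e-05). Col6a4 went the other way, with 3.37, 2.94 and 3.61 CPM in WT SCC, against 0.869, 0.564 and 0.617 CPM in WT skin, and rose by 2.28 ± 0.32 (adjusted p = 0.000299). Neither gene overlapped between the groups. Col6a5 also fell (log2 fold change -2.35 ± 0.65), a call lost without WT SCC replicate 1 (adjusted p = 0.0519). The more abundant Col6a1, Col6a2 and Col6a3 did not pass, and Col6a1 had 92.9, 144 and 212 CPM in WT SCC, against 315, 217 and 165 CPM in WT skin, which overlap.

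Genes of epithelial and basement membrane collagens were among those that rose. Col17a1 had 737, 923 and 815 CPM in WT SCC, against 357, 481 and 248 CPM in WT skin, and rose by 1.19 ± 0.22 (adjusted p = 0.00178). Col23a1, another transmembrane collagen, had 52.9, 69 and 65 CPM in WT SCC, against 33.6, 32 and 23 CPM in WT skin, and rose by 1.08 ± 0.18 (adjusted p = 0.000949). All carcinomas were above all skin libraries for both genes. Keratinocyte markers also summed higher in WT SCC, as given above, with 6 of 8 higher and 2 lower, and their part in these differences was not tested. Col18a1, whose C-terminal fragment is endostatin, had 171, 248 and 238 CPM in WT SCC, against 87.5, 97.1 and 98.8 CPM in WT skin, and rose by 1.21 ± 0.17 (adjusted p = 0.00025). Col8a1, a short-chain collagen of vessels and remodelling tissue, had 31.3, 40.9 and 45.4 CPM in WT SCC, against 6.06, 9 and 5.61 CPM in WT skin, and rose by 2.51 ± 0.26 (adjusted p = 4.54e-05). Neither overlapped. Col12a1, a fibril-associated collagen, had 226, 251 and 323 CPM in WT SCC, against 86.9, 137 and 72.9 CPM in WT skin, without overlap, and rose by 1.43 ± 0.3 (adjusted p = 0.00331). Col13a1 rose by 1.16 ± 0.24. Col7a1, the anchoring fibril gene, had 179, 258 and 260 CPM in WT SCC, against 138, 204 and 37.9 CPM in WT skin, and did not pass (0.88 ± 0.45, adjusted p = 0.137), but passed without skin replicate 2 (adjusted p = 0.0365).

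Of the 9 fibril-associated genes 1 rose, 4 fell and 4 did not pass. Besides Col12a1, which rose, Col16a1 (log2 fold change -1.11 ± 0.24), Col20a1 (-1.4 ± 0.33) and Col9a3 (-1.5 ± 0.49) fell, as did the multiplexin Col15a1 (-1.02 ± 0.25). The call of Col9a3 was lost without WT SCC replicate 1 or 3 and without each of the skin replicates (adjusted p = 0.0511 to 0.0842). Col9a1 had no count in any WT SCC library and 14 to 31 counts in WT skin libraries, at least 6.03-fold lower against a floor of 3 counts per library. Those that did not pass were Col14a1 (-0.83 ± 0.44, adjusted p = 0.149), Col19a1 (-3.56 ± 1.48, adjusted p = 0.0754), Col22a1 (-2.2 ± 0.85, adjusted p = 0.0602) and Col9a2 (-1.07 ± 1.1, adjusted p = 0.451). Col28a1 had 0.987, 1.17 and 1.77 CPM in WT SCC, against 5.64, 3.69 and 4.18 CPM in WT skin, without overlap, and fell by 1.77 ± 0.31 (adjusted p = 0.0011). Exons of Col9a3 overlap Tcfl5 on the opposite strand by 234 bases. Of the other called genes, Col3a1 shares up to 141 exon bases and Col20a1 up to 79 with another annotated gene on the same strand. Col6a4, Col6a6 and Col15a1 share exon bases with genes on the opposite strand, Col6a4 by up to 127 bases.

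**Figure D4:**
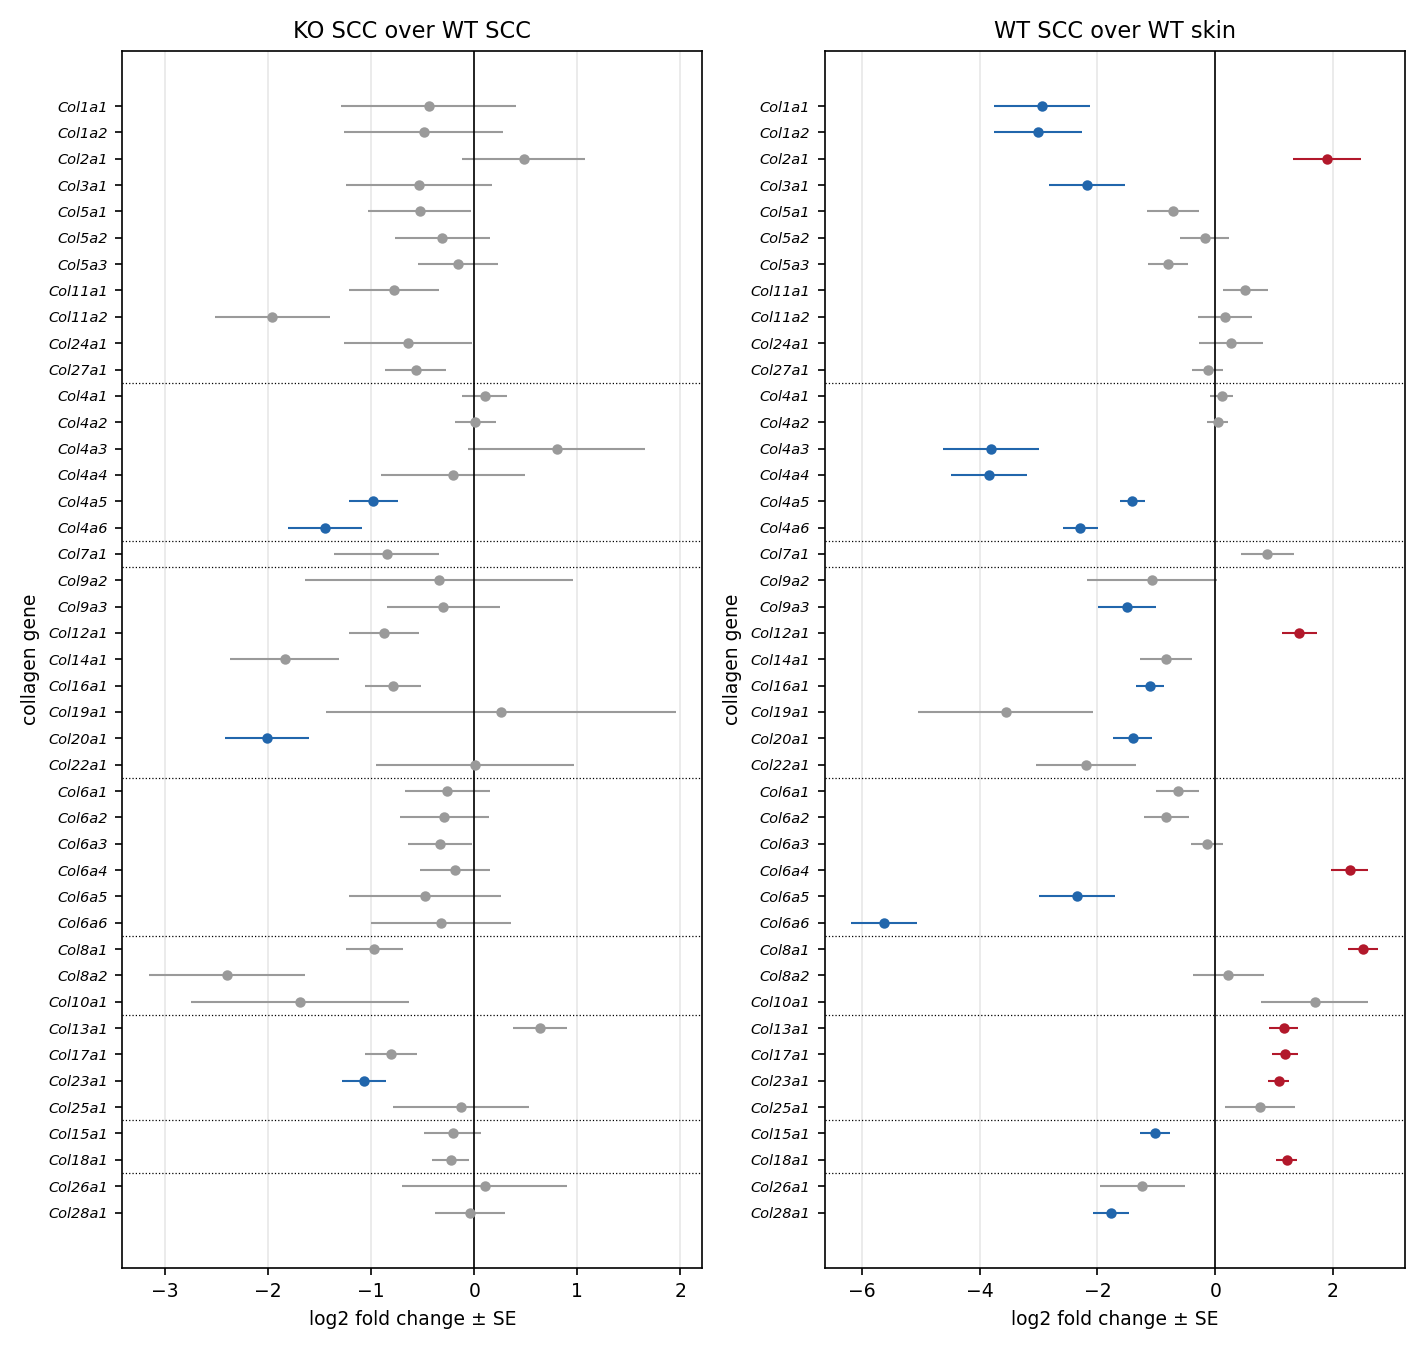
Log2 fold change ± SE of 43 mouse collagen genes in KO SCC over WT SCC (left) and WT SCC over WT skin (right), with red for genes that rose, blue for genes that fell and grey for those that did not pass; dotted lines separate the classes. Col9a1, without a count in WT SCC, is not drawn. On the left 4 genes are blue and none is red.

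KO SCC was compared with WT SCC to see which collagens differ between carcinomas of the labelled genotypes. No member rose, and 4 fell: the epidermal basement membrane genes Col4a5 and Col4a6, the transmembrane Col23a1 and the fibril-associated Col20a1. That is 9.09% of 44, against 7.87% of all features tested (4.48% higher and 3.38% lower), so the share of members called was near the background. At an unadjusted p under 0.05 there were 12 members, against 24.8% of all features, of which Col13a1 was the one above 0. DESeq2 called 11 members, 27.5% of those it gave an adjusted p, against 18.8% of all features it gave one. The median log2 fold change was -0.34 over the members and -0.01 over all features, and 35 of 44 members were below 0, against 50.4% of all features. Fibroblast markers summed to 230 and 466 CPM in KO SCC and 468, 521 and 715 CPM in WT SCC, and myofibroblast and pericyte markers to 237 and 271 CPM in KO SCC and 401 to 505 CPM in WT SCC. Leukocyte markers summed to 266 and 364 CPM in KO SCC and 563 to 794 CPM in WT SCC (1 of 8 lower). Cartilage and bone markers summed to 23.3 and 27.2 CPM in KO SCC and 61.8 to 75.2 CPM in WT SCC (2 of 8 tested lower). The median log2 fold change of the cartilage and bone list was 0.18. Over the mouse libraries Sox9 reached 67.8 CPM and Runx2 21.8 CPM, while the others of that list stayed at or under 7.99 CPM. The part of all these markers in these differences was not tested.

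Col4a6 had 0.548 and 1.04 CPM in KO SCC, against 1.71, 2.51 and 2.33 CPM in WT SCC, and fell by 1.45 ± 0.36 (adjusted p = 0.0349, edgeR). Col4a5 had 3.03 and 3.73 CPM in KO SCC, against 7.58, 6.61 and 5.85 CPM in WT SCC, and fell by 0.98 ± 0.24 (adjusted p = 0.0318). Neither KO SCC library reached the lowest WT SCC library for these genes, whose upstream windows are shown above. Both genes are X-linked. Col4a5 kept its call in no fit that left out 1 library. Without WT SCC replicate 1, 2 or 3 its adjusted p was 0.0787, 0.0944 and 0.0565 (edgeR). Col4a5 was at -0.84 without KO SCC replicate 1 and at -1.14 without KO SCC replicate 2, the carcinoma library with Y-linked counts. Col4a1 had 229 and 239 CPM in KO SCC, inside the 197 to 255 CPM of WT SCC. Col23a1 had 28.9 and 30.4 CPM in KO SCC, against 52.9, 69 and 65 CPM in WT SCC, and fell by 1.07 ± 0.21 (adjusted p = 0.0137). Col20a1 had 0.606 and 0.472 CPM in KO SCC, against 1.71, 2.88 and 1.91 CPM in WT SCC, and fell by 2.01 ± 0.41 (adjusted p = 0.0158). Both also separated the groups fully. These calls depended on single libraries. No member was called when KO SCC replicate 1 was left out, or WT SCC replicate 2. Leaving out KO SCC replicate 2 kept Col4a6 alone, and leaving out WT SCC replicate 1 or 3 gave 3 or 2 members. With 1 KO SCC library left, that library was assumed to vary like the other groups. A fit with replicate number as a block called Col20a1 and Col23a1 only.

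Several further genes were lower in KO SCC and separated the groups without passing. The share of all features that separated in this way was not computed. Col13a1 separated the groups the other way, with 13.2 and 15.5 CPM in KO SCC, against 8.45, 6.82 and 12.5 CPM in WT SCC. It did not pass either (log2 fold change 0.64 ± 0.26, adjusted p = 0.156, edgeR). Col17a1 had 459 and 481 CPM in KO SCC, against 737, 923 and 815 CPM in WT SCC (log2 fold change -0.81 ± 0.25, adjusted p = 0.0729). Col8a1 had 20.7 and 19.2 CPM in KO SCC, against 31.3, 40.9 and 45.4 CPM in WT SCC (-0.97 ± 0.28, adjusted p = 0.0568). Col8a2, its partner chain, had 2.48 and 0.695 CPM in KO SCC, against 6.13, 9.9 and 8.99 CPM in WT SCC (-2.4 ± 0.76, adjusted p = 0.0764). Of the 8 keratinocyte markers 1 was higher, 1 was lower and 6 were not called in KO SCC, with a median log2 fold change of -0.16 and sums of 46600 and 50300 CPM in KO SCC, against 36500 to 38700 CPM in WT SCC, and their part was not tested. Col14a1, a fibril-associated collagen, had 3.75 and 8.05 CPM in KO SCC, against 14.3, 21.4 and 27.7 CPM in WT SCC (-1.84 ± 0.53, adjusted p = 0.0583). Col11a2 had 0.289 and 0.522 CPM in KO SCC, against 1.19, 1.96 and 1.61 CPM in WT SCC (-1.96 ± 0.56, adjusted p = 0.058). Col16a1 had 34.9 and 56.7 CPM in KO SCC, against 65.9, 80.5 and 91.8 CPM in WT SCC (-0.79 ± 0.27, adjusted p = 0.0975). DESeq2 called each of the 6 lower genes given here and did not call Col13a1.

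The abundant fibre genes overlapped. Col1a2 had 343 and 976 CPM in KO SCC, against 729, 883 and 1170 CPM in WT SCC (log2 fold change -0.49 ± 0.77, adjusted p = 0.757). KO SCC replicate 1 was the lowest of all 11 libraries for Col1a1, Col1a2 and Col3a1, and KO SCC replicate 2 lay inside the WT SCC range for each. KO SCC replicate 1 also had the lowest fibroblast marker sum, 230 CPM. Col7a1 had 102 and 155 CPM in KO SCC, against 179, 258 and 260 CPM in WT SCC, with no overlap and no call (-0.85 ± 0.51, adjusted p = 0.335). Col12a1, at 122 and 167 CPM in KO SCC, against 226, 251 and 323 CPM in WT SCC, did not pass either (-0.88 ± 0.34, adjusted p = 0.131), but was called by DESeq2 (adjusted p = 0.0447) and with no filter (adjusted p = 0.0407). A fit of these groups alone called both Col7a1 (adjusted p = 0.0256) and Col12a1 (adjusted p = 0.0138).

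KO SCC was compared with KO papilloma to follow collagens between the benign and the malignant lesion of the same labelled genotype. edgeR called 0 of 44 members, against 0.286% of all features, and 6 members had an unadjusted p under 0.05 (15.6% of all features). DESeq2 called 2, Col4a6 and Col6a5. That is 5.71% of the members it gave an adjusted p, against 5.65% of all features it gave one. Col4a6 had 0.548 and 1.04 CPM in KO SCC, against 2.28, 2.46 and 3.07 CPM in KO papillomas, without overlap (log2 fold change -1.7 ± 0.36, adjusted p = 0.09, edgeR). Col6a5 had 0.231 and 1.29 CPM in KO SCC, against 1.38, 4.18 and 7.39 CPM in KO papillomas, also without overlap but with a wide papilloma range (-2.49 ± 0.78, adjusted p = 0.199). Col20a1 had 0.606 and 0.472 CPM in KO SCC, against 0.77, 1.51 and 1.63 CPM in KO papillomas (-1.27 ± 0.4, adjusted p = 0.2). Col18a1 had 192 and 182 CPM in KO SCC, against 295, 219 and 262 CPM in KO papillomas (-0.47 ± 0.19, adjusted p = 0.266). The epithelial Col17a1 overlapped, with 459 and 481 CPM in KO SCC, against 496 ± 78.2 CPM in KO papillomas (SD, n = 3). The median log2 fold change was -0.45 over the members and -0.05 over all features. Fibroblast markers summed to 230 and 466 CPM in KO SCC and 355 to 750 CPM in KO papillomas, and their part was not tested.

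KO papilloma was also set against WT SCC, a contrast in which lesion stage and labelled genotype cannot be told apart. edgeR called 0 of 44 members, against 5.25% of all features, and 10 had an unadjusted p under 0.05 (19.4% of all features). DESeq2 called 5, which is 11.9% of the members it gave an adjusted p, against 10.5% of all features it gave one. Col8a2 had 2.9, 1.75 and 0.315 CPM in KO papillomas, against 6.13, 9.9 and 8.99 CPM in WT SCC (log2 fold change -2.33 ± 0.64, adjusted p = 0.0646, edgeR). Col8a1 had 27.1, 21.9 and 15 CPM in KO papillomas, against 31.3, 40.9 and 45.4 CPM in WT SCC (-0.88 ± 0.24, adjusted p = 0.0653). Neither overlapped. Col23a1 had 32.8, 47.3 and 42.2 CPM in KO papillomas, against 52.9, 69 and 65 CPM in WT SCC (-0.61 ± 0.18, adjusted p = 0.0836). Col17a1 had 496 ± 78.2 CPM in KO papillomas, against 825 ± 93.3 CPM in WT SCC (SD, n = 3 each), without overlap (log2 fold change -0.73 ± 0.22, adjusted p = 0.0873). Col6a5 was the gene above 0 among the 5 that DESeq2 called, with 1.38, 4.18 and 7.39 CPM in KO papillomas, against 1.02, 1.13 and 1.07 CPM in WT SCC (2 ± 0.65, adjusted p = 0.109, edgeR). This comparison and that of KO SCC share the WT SCC libraries, so like signs in both are not independent.

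Enzymes and partners that act on collagen were read from 6 lists. Of all features tested, 16.9% were higher and 23.6% lower in WT SCC against WT skin. In WT SCC against WT skin, 8 of 14 genes of procollagen processing and cross-linking fell and none rose. Pcolce2, an enhancer of procollagen C-proteinase, averaged 2.4 ± 1.14 CPM in WT SCC and 110 ± 62.9 CPM in WT skin (SD, n = 3 each) and fell by 5.52 ± 0.61 (SE). Adamts14, a procollagen N-proteinase, fell by 2.66 ± 0.42. Of 14 fibril-binding proteoglycans and glycoproteins 9 fell and none rose, among them Dcn (decorin) by 4.18 ± 0.61 and Tnxb (tenascin-X) by 5.19 ± 0.66. Among 13 proteases and inhibitors 2 rose and 7 fell: the collagenase Mmp13 rose by 3.42 ± 0.65 and the inhibitor Timp1 by 1.14 ± 0.2, while Timp2 fell by 2.63 ± 0.32. Among 12 receptors 3 rose and 2 fell, with Cd44 higher by 1.61 ± 0.16 and the collagen receptor Ddr2 lower (-2.32 ± 0.24). Of 18 basement membrane partners 4 rose and 8 fell, with Nid1 (nidogen) at -1.32 ± 0.2. Of 20 chain-modifying and folding genes of the endoplasmic reticulum (ER) 5 rose and 4 fell, with the lysyl hydroxylase Plod2 at 1.43 ± 0.37.

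In KO SCC against WT SCC the ER list had 2 genes that rose and 2 that fell of 20. Of all features tested, 4.48% were higher and 3.38% lower. Ppib, a prolyl isomerase, averaged 183 ± 15.9 CPM in KO SCC (SD, n = 2) and 114 ± 4.02 CPM in WT SCC (SD, n = 3) and rose by 0.68 ± 0.15 (SE, adjusted p = 0.0227, edgeR). P4hb, the shared subunit of prolyl hydroxylase, rose by 0.63 ± 0.15 (adjusted p = 0.0326), while the catalytic subunit gene P4ha1 fell by 0.71 ± 0.18 (adjusted p = 0.0396) and Plod3 fell by 0.95 ± 0.15 (adjusted p = 0.0058). Timp1, Prelp (a proteoglycan that binds basement membrane and fibres) and Hspg2 (perlecan) each fell, Timp1 by 0.83 ± 0.22, Prelp by 2.55 ± 0.52 and Hspg2 by 0.72 ± 0.18. None of 14 processing genes and none of 12 receptors was called. In KO papilloma against WT SCC, P4hb rose by 0.69 ± 0.14, P4ha1 fell by 0.85 ± 0.16 and Plod3 fell by 0.52 ± 0.13, and Ddr2 and Frem2 rose by 1.51 ± 0.23 and 2.07 ± 0.33. In KO SCC against KO papilloma no gene of the 6 lists was called. Of all features tested, 5.25% were called in KO papilloma against WT SCC and 0.286% in KO SCC against KO papilloma.

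In A431 cells most collagen reads came from epithelial collagens. COL17A1, COL7A1 and COL12A1 had the highest mean CPM over the 6 libraries. Of collagen CPM, 25.3% to 27.3% lay in COL7A1 in KO cells and 16.6% to 17.1% in control cells, and transmembrane collagens took 34% to 35.5% in KO cells and 36.4% to 36.7% in control cells. COL1A1 was at 45.8 to 56.8 CPM in KO cells and 62.7 to 64.3 CPM in control cells, yet COL1A2, the other type I chain, had 1 count over all 6 libraries. Keratinocyte markers summed to 47900 to 49700 CPM in KO cells and 46800 to 50300 CPM in control cells. The 12 fibroblast markers summed to 506 to 534 CPM in KO cells and 416 to 419 CPM in control cells, led by LSP1 at 251 to 390 CPM and PDPN at 91.6 to 98.4 CPM over the 6 libraries. LUM was at 24.6 to 50.9 CPM, DCN at 1.02 to 8.93 CPM, FAP at 2.37 to 5.81 CPM and MFAP5 at 0.17 to 8.45 CPM. TWIST2 and SERPINF1 reached 1.67 and 2.51 CPM, and PDGFRA, DPT, THY1 and PI16 stayed at or under 0.298 CPM. Of the 8 fibroblast markers tested, 3 rose and 3 fell, and their part in the collagen differences was not tested. Endothelial markers summed to 1.21 to 1.78 CPM in KO cells and 0.922 to 1.17 CPM in control cells, and KDR, an endothelial marker, had no count.

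Of the 27 members tested, 7 rose and 13 fell between A431 KO and control cells (edgeR, adjusted p under 0.05), which is 74.1% against 47.6% of all 18090 features (23.1% higher and 24.5% lower). Differences of at least 2-fold were fewer, 3 higher and 3 lower, where 8.15% of all features passed at that size. The 4 members not tested for low counts were COL4A3, COL4A4, COL6A6 and COL10A1. The median log2 fold change was -0.09 over the members and 0.01 over all features.

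The anchoring fibril gene COL7A1 was higher in KO cells while the hemidesmosome gene COL17A1 did not pass. COL7A1 had 1670, 1850 and 1940 CPM in KO cells, against 1110, 1080 and 1130 CPM in control cells, and rose by 0.71 ± 0.05 (adjusted p = 2.96e-09). COL17A1 had 2340, 2380 and 2410 CPM in KO cells, against 2410, 2380 and 2430 CPM in control cells (-0.02 ± 0.04, adjusted p = 0.696). The ratio of COL7A1 to COL17A1 in CPM was 0.713, 0.778 and 0.805 in KO cells and 0.463, 0.454 and 0.466 in control cells.

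Of the 6 basement membrane network genes 4 were tested, of which 3 were lower and 1 did not pass. COL4A1 had 353, 348 and 361 CPM in KO cells, against 516, 514 and 508 CPM in control cells, and fell by 0.53 ± 0.04 (adjusted p = 9.98e-09). COL4A2 had 504, 535 and 562 CPM in KO cells, against 702, 672 and 710 CPM in control cells, and fell by 0.38 ± 0.05 (adjusted p = 3.08e-06). COL4A5 fell by 0.23 ± 0.04, and COL4A6, at 87.7 ± 2.49 CPM in KO cells and 89.6 ± 1.71 CPM in control cells (SD, n = 3 each), did not pass (-0.03 ± 0.05, adjusted p = 0.616). The groups did not overlap for COL4A1, COL4A2 or COL4A5.

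Fibrillar genes were mostly lower, 5 of 9, with COL11A2 the one that rose (1.3 ± 0.22). COL5A3 had 20.8, 20.5 and 20.2 CPM in KO cells, against 41.3, 36.5 and 38.8 CPM in control cells, and fell by 0.92 ± 0.06 (adjusted p = 2.07e-09). COL3A1 had 0.234, 0.386 and 0.664 CPM in KO cells, against 4.1, 3.56 and 4.2 CPM in control cells, and fell by 3.21 ± 0.25 (adjusted p = 1.51e-08). COL27A1 had 178, 183 and 186 CPM in KO cells, against 244, 249 and 239 CPM in control cells, and fell by 0.42 ± 0.04 (adjusted p = 5.16e-07). All separated the groups fully. COL5A1 had 104, 119 and 123 CPM in KO cells, against 157, 153 and 154 CPM in control cells, and fell by 0.42 ± 0.06 (adjusted p = 8.37e-06).

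The deepest rise was that of COL22A1, a fibril-associated collagen known from myotendinous junctions. It had 11.5, 11.6 and 12 CPM in KO cells, against 2.52, 1.74 and 2.06 CPM in control cells, and rose by 2.49 ± 0.13 (adjusted p = 4.31e-11). COL6A2 had 6.56, 6.93 and 6.67 CPM in KO cells, against 3.62, 2.95 and 3.47 CPM in control cells, and rose by 1.01 ± 0.12 (adjusted p = 2.5e-06). COL6A1 and COL6A3 of the same filament gave values of 0.18 ± 0.07 (adjusted p = 0.0316) and -2.32 ± 0.65. COL6A3 had 0 to 8 counts per KO library and 18 to 20 per control library, and COL6A1 overlapped between the groups and lost its call with DESeq2 (adjusted p = 0.0794) and without any of 5 of the 6 libraries (adjusted p = 0.0538 to 0.148). COL28A1 had 2.75, 3.53 and 2.47 CPM in KO cells, against 7.04, 6.34 and 5.16 CPM in control cells, and fell by 1.08 ± 0.15 (adjusted p = 1.58e-05). COL12A1 had 710, 709 and 715 CPM in KO cells, against 626, 650 and 603 CPM in control cells, and rose by 0.18 ± 0.04 (adjusted p = 0.00154). COL8A2 had 15.7, 13.3 and 16.1 CPM in KO cells, against 18.9, 17.4 and 18 CPM in control cells, and fell by 0.27 ± 0.08 (adjusted p = 0.011), a call lost without A431 KO replicate 2 (adjusted p = 0.0852). COL18A1 overlapped and did not pass (-0.09 ± 0.07, adjusted p = 0.286).

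**Figure D5:**
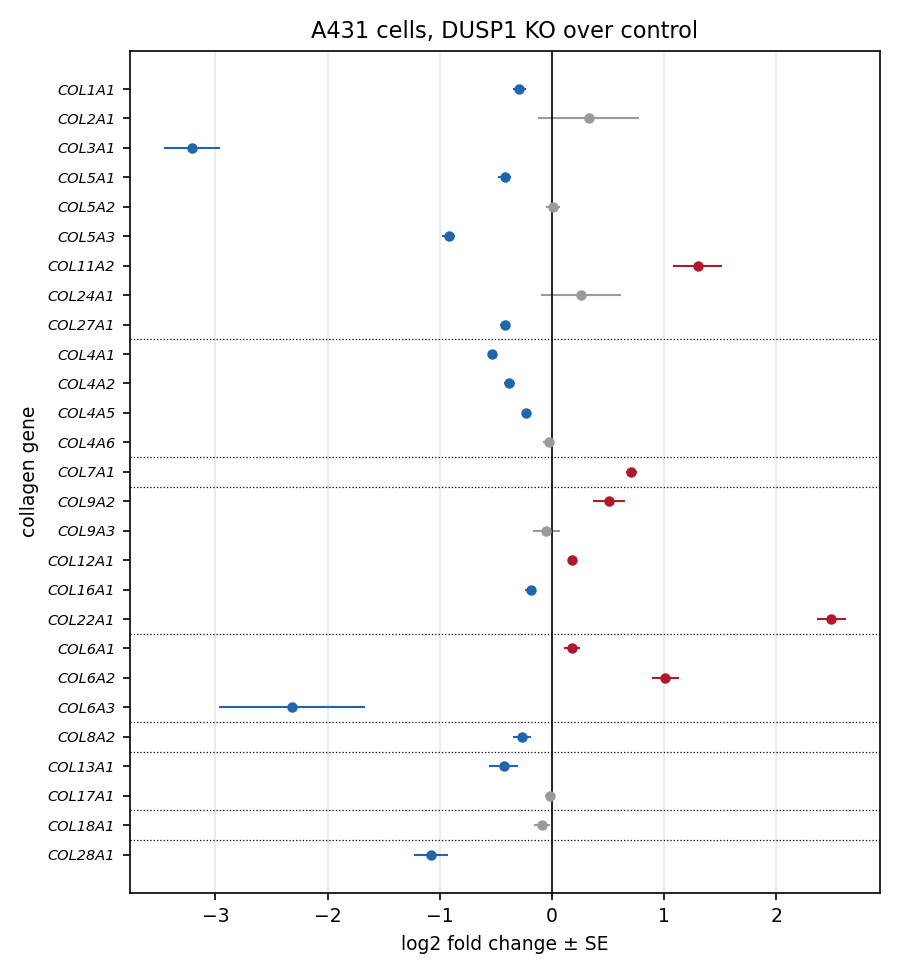
Log2 fold change ± SE of the 27 tested collagen genes in A431 KO over A431 control cells, with red for genes that rose, blue for genes that fell and grey for those that did not pass; dotted lines separate the classes. COL22A1 lies farthest right at 2.49 and COL3A1 farthest left at -3.21, with most abundant genes within 1 of 0.

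Partner genes changed in both directions in A431 cells, where 23.1% of all features tested were higher and 24.5% lower. The ER list had 10 genes that rose and 4 that fell of 19 tested: the collagen chaperone SERPINH1 rose by 0.54 ± 0.05 and the prolyl hydroxylase subunit P4HA2 fell by 0.66 ± 0.05. Of 12 processing genes 3 rose and 6 fell, among them the cross-linking enzyme LOXL2 (-0.62 ± 0.07). Of 10 proteases and inhibitors 3 rose and 6 fell. The collagenase MMP1 averaged 298 ± 12.1 CPM in KO cells and 88.9 ± 1.88 CPM in control cells (SD, n = 3 each) and rose by 1.74 ± 0.05 (SE), while MMP9, which degrades basement membrane collagen, averaged 16.1 ± 1.79 CPM in KO cells and 85.3 ± 4.5 CPM in control cells and fell by 2.41 ± 0.07. MMP13 fell by 0.97 ± 0.06. Of 9 fibril-binding genes 4 rose and 3 fell, with FN1 (fibronectin) at 58.5 ± 1.5 CPM in KO cells and 419 ± 19.2 CPM in control cells and a fall of 2.84 ± 0.05, and BGN (biglycan) higher by 1.95 ± 0.08. Of 15 basement membrane partners 5 rose and 4 fell, including LAMB3, a laminin-332 chain, at 0.32 ± 0.04, and NID1 at -0.47 ± 0.05. Of 11 receptors 2 rose and 2 fell, with CD44 at 0.32 ± 0.04.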

How the data were processed

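Gene-level read counts, deposited by the authors as 1 mouse and 1 A431 table, were used as deposited; HISAT2, StringTie, DESeq and the builds mm10 and hg38 are named per the submitters' processing notes, with no versions. Per the labels' protocols, libraries were made with a stranded mRNA kit. Features with no name (0.115% to 0.496% of mouse counts, 0.19% to 0.211% of A431 counts) entered neither library sizes nor tests. Counts were tested with edgeR 4.0.16 in R 4.3.3 (filterByExpr, TMM, glmQLFit, glmQLFTest, Benjamini-Hochberg over all features tested), with all 11 mouse libraries in 1 fit and the 6 A431 libraries in another, and an adjusted p threshold of 0.05. The common biological coefficient of variation was 36.6% in mouse and 6.11% in A431 libraries. Alternatives were RLE size factors, no filter, DESeq2 1.42.0, a replicate block, a fit of the 2 groups compared and leaving out each library; the code was tested on simulated data. No pair of replicates agreed within sampling noise. Lengths for CPM per kb are GENCODE M21 exon unions; the length of the longest coding transcript was added after those values had been seen. Per comparison, the members given in full were up to 10 with the smallest adjusted p and the highest-CPM member of each class, and of each partner list up to 4 genes; the other members named were picked after their values were seen. Members and lists were chosen with earlier results of these data known. The 4 Y-linked genes and Xist were counted last, after all other results had been seen.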

Additional observations from a re-analysis of the deposited data

How the results depend on the processing

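Of 1020 recomputed log2 fold changes of single genes, 914 kept direction and call, 43 lost a call, 41 gained one and 22 changed sign; 7 levels per kb moved beyond 1 SD with the transcript length. Members called in KO SCC against WT SCC were 9 with no filter, 11 with DESeq2, 2 with the replicate block, 13 in a fit of the 2 groups and 0 to 3 leaving out 1 library; all genes called were 2365 with no filter (6.33%, against 20.5% of members), 3342 with DESeq2, 798 with the block, 4160 in the 2-group fit and 302 to 975 leaving out 1 library. For KO SCC against KO papilloma, members were 2 with no filter, 2 with DESeq2 and 0 to 0 leaving out 1 library; all genes were 611, 841, 1 with the block and 0 to 84. For KO papilloma against WT SCC, members were 5 with no filter, DESeq2 or 2 groups and 0 to 0 leaving out 1 library; all genes were 1854, 2171, 1797 and 478 to 1100. For KO papilloma against WT SCC, the shares called of members and of all features were 11.4% and 4.96% with no filter, 11.9% and 10.5% with DESeq2, and 12.8% and 9.97% with 2 groups. For KO SCC against WT SCC these shares were 27.5% and 18.8% with DESeq2, 4.55% and 3.57% with the block, and 32.5% and 22.5% with 2 groups. For KO SCC against KO papilloma they were 4.55% and 1.63% with no filter and 5.71% and 5.65% with DESeq2. Leaving out 1 library gave 19 to 25 members and 6755 to 9585 genes for WT SCC against WT skin, and 17 to 20 members and 7435 to 9564 genes for A431. Replicate numbers did not pair libraries: correlations of same-numbered deviations were -0.24 to 0.13, and 2 of 6, 0 of 6 and 1 of 6 libraries matched best with their own number in the 3 comparisons of 3 pairs. With the block, Col1a1, Col3a1 and Col9a3 lost their calls in WT SCC against WT skin, and Col4a5 and Col4a6 in KO SCC against WT SCC. Sign changes were all in uncalled genes. Col28a1 in KO SCC against WT SCC was at 0 with RLE and 0.02 with no filter. Leaving out 1 library, log2 fold changes spanned -0.23 to 0.24 (Col28a1), -0.84 to 0.15 (Col6a1) and -1.43 to 0.08 (Col1a2) in KO SCC against WT SCC; -0.02 to 0.23 (Col4a1) in WT SCC against WT skin; -0.94 to 0.04 (Col6a1), -1.34 to 0.18 (Col1a2), -0.29 to 0.12 (Col8a1), -0.17 to 0.05 (Col17a1) and -0.09 to 0.27 (Col4a1) in KO SCC against KO papilloma; and -0.17 to 0.19 (Col4a1), -0.15 to 0.44 (Col6a1) and -0.26 to 0.17 (Col1a2) in KO papilloma against WT SCC. In A431 cells COL6A1 lost its call with no filter and DESeq2. The cause was not tested. Col9a2 and Col9a1, with 68 and 77 counts over all mouse libraries, rest on few reads.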
